A study of Sus scrofa with 6 samples.

Results

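Cortical glutamatergic and layer identity genes are 36 genes that mark the excitatory projection neurons of the cortex, taken by name from the 17201 genes listed in the deposited count tables. They comprise 12 pan-glutamatergic markers, 10 upper-layer markers and 14 deep-layer markers. RNA sequencing covered the prefrontal cortex of 6 pigs, Sus scrofa, at the age of 3 months. The animals VPA 391, VPA 392 and VPA 393 had been exposed before birth, in early gestation, to valproic acid at 75 mg/kg, and the animals control 401, control 402 and control 408 are labelled as untreated. The deposited data columns of these controls are named WT followed by the animal number. Valproic acid (VPA) is an anticonvulsant and an inhibitor of histone deacetylases, and prenatal exposure to it is used to model autism in animals. The sources used here do not give breed, sex, litter, route or days of dosing, so animals of 1 group may share a litter.

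Most neurons of the neocortex are glutamatergic. They derive from progenitors of the dorsal telencephalon that express EMX1 and differentiate through bHLH factors of the NEUROD family, and they load glutamate into synaptic vesicles with the transporter encoded by SLC17A7. Upper-layer neurons, marked by CUX1, CUX2 and RORB, connect mainly within the cortex. Deep-layer neurons send axons out of the cortex: FEZF2 and BCL11B specify neurons that project to the brainstem and spinal cord in mice, and TBR1, TLE4 and FOXP2 mark neurons of layer 6, many of which project to the thalamus.

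Total counts per library ran from 16285517 to 17989032, so that 1 CPM (counts per 1000000 counts of the library) stood for 16.3 to 18 reads. All 36 members were listed, and 35 passed the filter on low counts. TESPA1, a gene of T cell receptor signalling that also marks excitatory neurons in human cortex, had 1 to 8 reads per library and was not tested. Next lowest were THEMIS with 14 to 41 reads and TSHZ2 with 44 to 74. SLC17A7 lay at the 99.3rd percentile of all listed genes by FPKM. No gene of the cell type lists was at 0 in all libraries. Those lists include markers of regions outside the neocortex, so this does not test the tissue label. One library stood apart. Of 12 markers of striatal projection neurons, which lie beneath the cortex, 11 were highest in VPA 393, with a summed level of 636 CPM against 218 and 244 CPM in VPA 391 and VPA 392 and 183 to 212 CPM in controls.

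Levels between genes were compared per gene length, as deposited FPKM. SLC17A7 led with 355 ± 13.7 FPKM in VPA and 385 ± 6.52 FPKM in controls (SD, n = 3 each). HPCAL4, a neuronal calcium sensor gene, followed with 273 ± 8.37 FPKM in VPA and 280.4 ± 15.3 FPKM in controls. The SDs of these 2 genes leave a gap between them in both groups. PCP4, which encodes a calmodulin regulator, was the highest deep-layer member at 122 ± 15.6 FPKM in VPA and 95.1 ± 18.7 FPKM in controls, where its spread reached the levels of NPTX1 and MEF2C. NPTX1, MEF2C and LINGO1 came next in both groups, and their levels lay close together: in VPA they had 77.8 ± 3.94, 76.2 ± 6.71 and 71.8 ± 4.18 FPKM, and in controls 90.5 ± 7.99, 90.0 ± 3.62 and 80.6 ± 4.38 FPKM. Among upper-layer members SERPINE2, a serine protease inhibitor gene, was highest at 57.4 ± 3.38 FPKM in VPA and 56.8 ± 4.08 FPKM in controls. At the other end FOXP2, TSHZ2, THEMIS and TESPA1 had a mean over all libraries below 1 FPKM, while 16 members exceeded 10 FPKM.

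**Figure D1:**
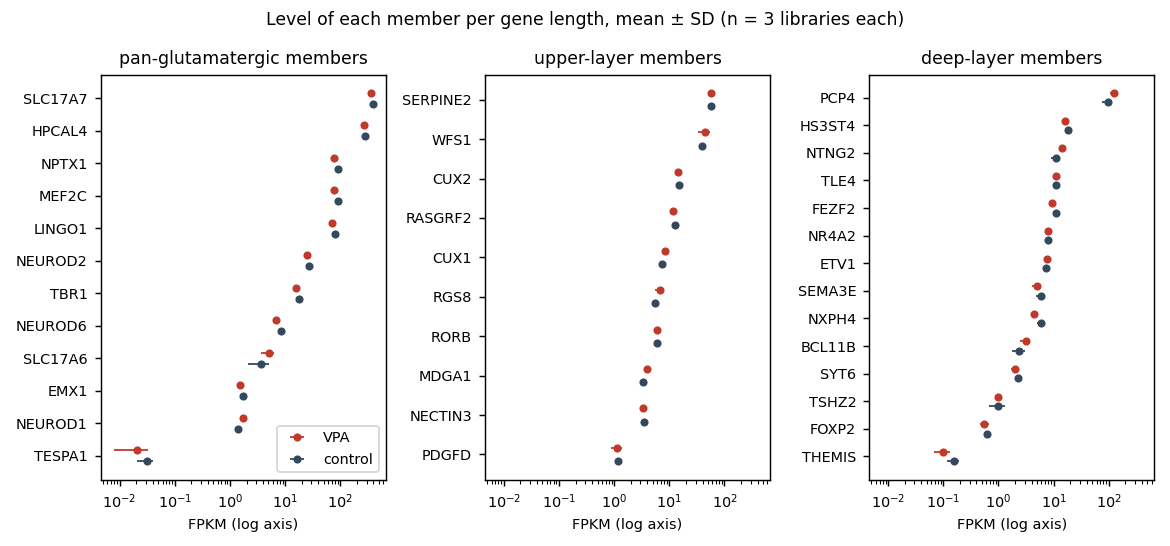
Deposited FPKM of each of the 36 members on a log axis, as mean ± SD over 3 VPA libraries and 3 control libraries, in panels by class. SLC17A7 and HPCAL4 lead the pan-glutamatergic panel, SERPINE2 and WFS1 the upper-layer panel and PCP4 the deep-layer panel, and VPA and control points of a gene lie close to each other relative to the range between genes.

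No member was called between VPA and control cortex. Called means an adjusted p under 0.05 in edgeR's quasi-likelihood test with Benjamini-Hochberg adjustment over all 14373 genes tested. Of all genes tested 52 were called (0.362%), 40 higher (0.278%) and 12 lower (0.0835%) in VPA. Without VPA 391 or VPA 392 that number was 0, without VPA 393 it was 1, without control 402 it was 5 and without control 408 it was 2. Without control 401 it rose to 66. No member was called in any of these fits. At an unadjusted p under 0.05, 9 of 35 tested members were lower (25.7%, against 7.45% of all genes) and 5 were higher in VPA (14.3%, against 8.69%). DESeq2 called 3 members, NEUROD6, MEF2C and NPTX1, all lower in VPA, where it called 3.64% of the genes to which it gave an adjusted p (2.09% higher and 1.55% lower). With 1 library left out DESeq2 called 0 to 5 members, with 0 without VPA 392 and 0 without control 408, and NEUROD6 was among them only without VPA 393. For these DESeq2 fits the share of all genes called was not counted. limma-voom and limma on FPKM called none.

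The 3 classes are set side by side here with no test between them. Of 11 tested pan-glutamatergic members 9 had a negative log2 fold change (VPA over control), with a median of -0.16. Of 10 upper-layer members 4 were negative, with a median of 0.0015, and of 14 deep-layer members 8 were negative, with a median of -0.08. The deep-layer median ran from -0.17 to -0.026 with 1 library left out and was 0.010 and 0.018 in limma on log2(FPKM + 1) and log2(FPKM + 0.1). The upper-layer and deep-layer medians were each smaller in size than the SD of the class median between libraries of a group (0.047 and 0.085 on the log2 scale). Over all genes tested 49.5% were negative and the median was 0.0018. VPA and control libraries did not overlap in 13 of 35 tested members, against 21.2% of all genes. Every VPA library was below every control in 6 pan-glutamatergic, 0 upper-layer and 2 deep-layer members, against 9.07% of all genes. The opposite order was found in 1, 3 and 1 members, against 12.1% of all genes. In bulk tissue, fewer cells of a type and less RNA per cell cannot be told apart.

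**Figure D2:**
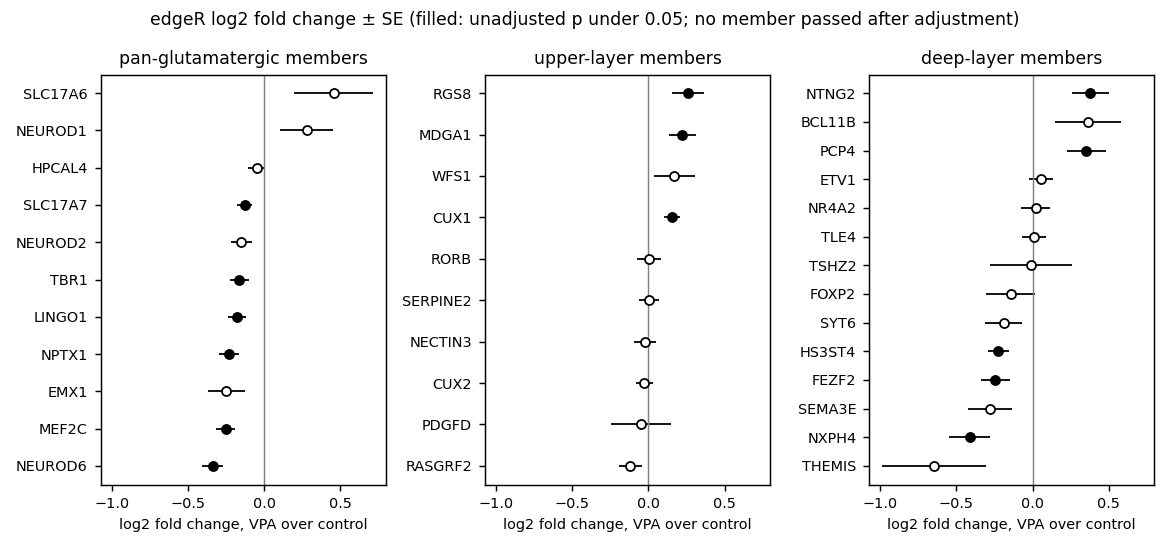
edgeR log2 fold change, VPA over control, with its standard error for the 35 tested members in panels by class, where filled points have an unadjusted p under 0.05. Points of the pan-glutamatergic panel lie left of 0 except SLC17A6 and NEUROD1, while those of the upper-layer panel lie between -0.12 and 0.26 and those of the deep-layer panel spread to both sides.

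The vesicular glutamate transporters, which define the transmitter of these neurons, had log2 fold changes of opposite sign. SLC17A7, the main cortical transporter gene, had 1090.2, 1071 and 1012 CPM in VPA libraries against 1152, 1124 and 1161 CPM in controls. All VPA libraries were thus below all controls, by a small margin (log2 fold change -0.13 ± 0.050 SE, adjusted p = 0.25). SLC17A6, the transporter gene used mainly by subcortical neurons such as those of the thalamus, had 32.6, 27.4 and 19.0 CPM in VPA 391, VPA 392 and VPA 393 against 27.6, 16.6 and 12.9 CPM in control 401, control 402 and control 408. Here the groups overlapped, with control 401 above VPA 392, and the spread within each group was wide (log2 fold change 0.46 ± 0.26, adjusted p = 0.42). The 6 markers fixed for thalamic and hippocampal neurons summed to 137 to 170.3 CPM in VPA and 132 to 144 CPM in controls, also overlapping. Most of that sum came from CALB2 (mean 52.8 CPM in VPA, 58.4 CPM in controls) and ZBTB20 (51.6 and 39.5 CPM). TCF7L2 had 12.3 and 11.7 CPM and GBX2 0.486 and 0.444 CPM, so the sum does not measure thalamic RNA alone. What part such neurons had in the SLC17A6 values was not tested.

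Among the transcription factors, the 3 NEUROD genes differed in sign. NEUROD6, a bHLH factor of maturing glutamatergic neurons, had 34.4, 34.4 and 36.5 CPM in VPA libraries against 45.5, 44.2 and 42.3 CPM in controls. It was the member with the lowest p, with tight groups well apart: the log2 fold change was -0.34 ± 0.069, at an adjusted p of 0.065 in edgeR and 0.015 in DESeq2. In edgeR it passed with no filter (adjusted p = 0.0498) and with robust dispersion (adjusted p = 0.046), and over its 18 alternatives the adjusted p ran up to 0.20 while the log2 fold change stayed between -0.36 and -0.29. NEUROD2, a related factor of the same neurons, had 78.4, 84.7 and 71.8 CPM in VPA libraries against 88.6, 83.2 and 86.6 CPM in controls. VPA 392 lay within the control range (log2 fold change -0.15 ± 0.068, adjusted p = 0.31). NEUROD1, which acts earlier in neuronal differentiation, was scarce, with 5.02, 4.61 and 4.39 CPM in VPA libraries against 3.72, 3.91 and 3.81 CPM in controls. It was higher in all VPA libraries, from 66 to 84 reads per library (log2 fold change 0.28 ± 0.17, adjusted p = 0.47).

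MEF2C, a MADS-box factor that restrains synapse number in mice, had 663, 607 and 724 CPM in VPA libraries against 756, 818 and 781 CPM in controls. Every VPA library lay below every control (log2 fold change -0.25 ± 0.065, adjusted p = 0.10 in edgeR and 0.0062 in DESeq2). MEF2C is also expressed by microglia, whose 7 markers summed to 392 to 404 CPM in VPA and 318 to 405 CPM in controls. Whether microglial RNA had a part in the MEF2C values was not tested. TBR1, the T-box factor of layer 6 neurons, had 146, 133 and 126 CPM in VPA libraries against 153, 152 and 145 CPM in controls. The groups met at VPA 391 and control 408 (log2 fold change -0.16 ± 0.062, adjusted p = 0.23). EMX1 had 7.77, 8.90 and 9.62 CPM in VPA libraries against 10.2, 10.7 and 10.1 CPM in controls (log2 fold change -0.25 ± 0.12, adjusted p = 0.35), again without overlap.

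The other pan-glutamatergic members act at synapses and membranes. NPTX1, a neuronal pentraxin that clusters AMPA receptors, had 416, 382 and 419 CPM in VPA libraries against 446, 449 and 519.5 CPM in controls. Its groups were apart, with control 408 well above the other controls (log2 fold change -0.23 ± 0.068, adjusted p = 0.14 in edgeR and 0.029 in DESeq2; -0.15 without control 408 in edgeR). LINGO1, a Nogo receptor partner that limits myelination in rodents, had 324, 364 and 338 CPM in VPA libraries against 370.3, 374 and 408 CPM in controls. VPA 392 came closest to the controls (log2 fold change -0.18 ± 0.059, adjusted p = 0.17). HPCAL4 had 1304, 1242 and 1234 CPM in VPA libraries against 1211, 1335 and 1331 CPM in controls. The lowest value was that of control 401, so the groups overlapped (log2 fold change -0.05 ± 0.057, adjusted p = 0.73).

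**Figure D3:**
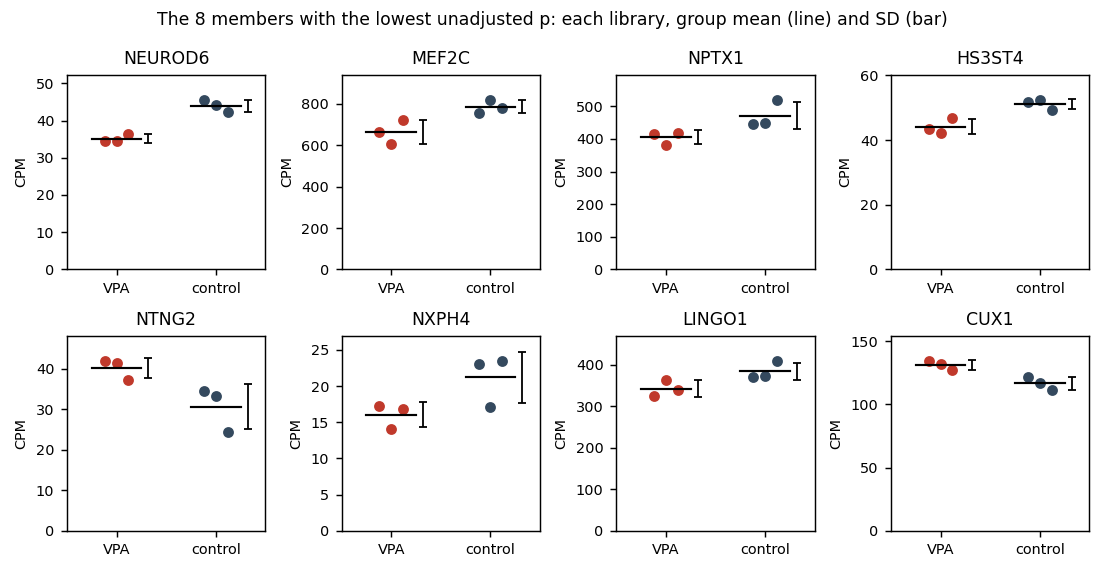
CPM in each library, with the group mean (line) and SD (bar), for the 8 members with the lowest unadjusted p, VPA left and control right, each axis starting at 0. NEUROD6, MEF2C, NPTX1, HS3ST4 and LINGO1 are lower in every VPA library, NTNG2 and CUX1 are higher in every VPA library, and NXPH4 shows 1 control among the VPA values.

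The pan-glutamatergic values stood beside the following values for other cell types. The 12 members summed to 3958 to 4103 CPM in VPA and 4264 to 4502 CPM in controls. Of 7 pan-neuronal markers, which do not separate excitatory from inhibitory neurons, 6 had a negative log2 fold change (median -0.06), and their sum was 8341 to 8829 CPM in VPA and 8913 to 9110 CPM in controls. All 10 oligodendrocyte markers were positive (median 0.34), with sums of 16854 to 18998 CPM in VPA and 12943 to 17414 CPM in controls. All 6 listed astrocyte markers were positive as well (median 0.21), with sums of 8169.5 to 9481 CPM in VPA and 7525 to 8214 CPM in controls, as were 7 of 9 interneuron markers (median 0.10; 781 to 816 CPM in VPA and 728 to 762 CPM in controls). The part of these cell types in the values of the members was not tested.

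Upper-layer members had log2 fold changes between -0.12 and 0.26. CUX2, a homeobox factor of upper-layer neurons, had 105, 103 and 100.1 CPM in VPA libraries against 105, 108 and 98.3 CPM in controls (log2 fold change -0.03 ± 0.055, adjusted p = 0.86). The VPA range lay inside the control range. CUX1, its paralog, had 134, 132 and 127 CPM in VPA libraries against 121, 117 and 111 CPM in controls. It was higher in all VPA libraries (log2 fold change 0.16 ± 0.052, adjusted p = 0.18), and it is also expressed outside neurons. RORB, a nuclear receptor gene of layer 4, had 71.3, 60.5 and 73.4 CPM in VPA libraries against 65.4, 71.0 and 66.9 CPM in controls. Its VPA values lay on both sides of the controls (log2 fold change 0.0017 ± 0.078, adjusted p = 0.99; the sign turned under 9 of 18 alternatives).

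RASGRF2, a Ras and Rac exchange factor gene, had the lowest log2 fold change of the class at -0.12 ± 0.074 (adjusted p = 0.46), with 156, 152 and 181 CPM in VPA libraries against 167, 191 and 168 CPM in controls. MDGA1, a membrane-anchored protein that binds neuroligin, had 34.6, 36.7 and 30.4 CPM in VPA libraries against 30.4, 28 and 28 CPM in controls. VPA 393 and control 401 nearly coincided, and the others were apart (log2 fold change 0.22 ± 0.090, adjusted p = 0.26). The adhesion gene NECTIN3, SERPINE2 and the growth factor gene PDGFD had overlapping groups and log2 fold changes of -0.02 ± 0.071, 0.0013 ± 0.065 and -0.05 ± 0.20. SERPINE2 is also made by glia, and PDGFD by vascular cells.

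RGS8 and WFS1 were high in VPA 393. RGS8, a regulator of G protein signalling, had 54.0, 54.7 and 73.5 CPM in VPA 391, VPA 392 and VPA 393 against 50.5, 50.5 and 49.7 CPM in controls. The log2 fold change was 0.26 ± 0.11 (adjusted p = 0.26) with all libraries and 0.11 without VPA 393. WFS1, which encodes the endoplasmic reticulum protein wolframin, had 152, 161 and 233 CPM in VPA 391, VPA 392 and VPA 393 against 163, 143 and 175 CPM in controls. Its log2 fold change was 0.17 ± 0.14 (adjusted p = 0.59) with all libraries and -0.04 without VPA 393. VPA 393 was also the library with the high striatal marker sum. Among those markers the dopamine receptor gene DRD1 had 45.5 CPM in VPA 393, 25.4 and 19.7 CPM in VPA 391 and VPA 392 and 15.1 to 17.1 CPM in controls. The part of striatal RNA in the RGS8 and WFS1 values was not tested.

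**Figure D4:**
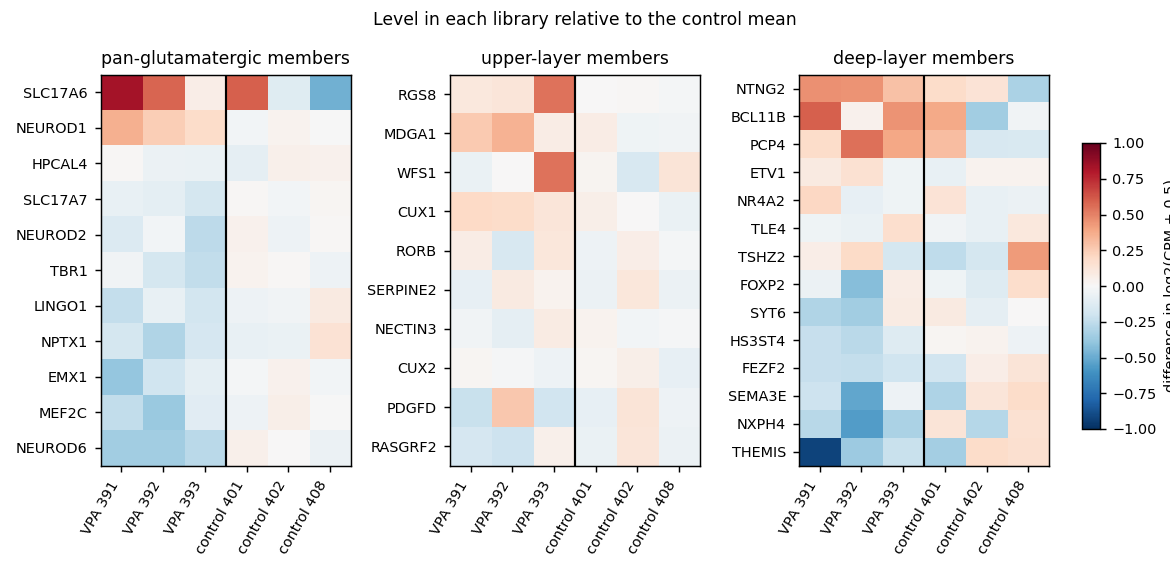
Level of the 35 tested members in each library, as the difference in log2(CPM + 0.5) from the mean of the 3 controls, in panels by class and ordered by log2 fold change, with VPA libraries left of the line. RGS8 and WFS1 stand out in VPA 393, the deep-layer panel is darkest blue for THEMIS in VPA 391 and NXPH4 in VPA 392, and NEUROD6 is blue in all VPA libraries.

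Deep-layer members spread to both sides. Factors and markers of layer 5 output neurons were split. FEZF2, the zinc finger factor that specifies these neurons in mice, had 25.8, 25.6 and 26.2 CPM in VPA libraries against 26.5, 31.7 and 33.0 CPM in controls. The VPA libraries were close together and just under control 401 (log2 fold change -0.24 ± 0.095, adjusted p = 0.24). BCL11B, a zinc finger factor downstream of FEZF2 in mice, had 9.69, 6.45 and 8.73 CPM in VPA libraries against 8.28, 4.80 and 6.09 CPM in controls (log2 fold change 0.36 ± 0.22, adjusted p = 0.44), with overlapping groups.

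PCP4 had 70.6, 91.2 and 81.4 CPM in VPA libraries against 77.2, 55.6 and 56.0 CPM in controls. Only control 401 reached the VPA range (log2 fold change 0.35 ± 0.13, adjusted p = 0.21). ETV1, an ETS factor of layer 5, had 49.4, 51.7 and 45.1 CPM in VPA libraries against 44.1, 47.6 and 47.7 CPM in controls (log2 fold change 0.06 ± 0.078, adjusted p = 0.78). BCL11B, PCP4 and FOXP2 are also expressed by striatal projection neurons. In VPA 393, the library with the high striatal marker sum, BCL11B and PCP4 were above every control and FOXP2 was below control 408. BCL11B was higher still in VPA 391, and PCP4 in VPA 392. The part of striatal RNA in these values was not tested.

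HS3ST4, a heparan sulfate sulfotransferase gene of corticothalamic neurons, had 43.5, 42.3 and 46.6 CPM in VPA libraries against 51.8, 52.4 and 49.2 CPM in controls. The groups were apart and each was tight (log2 fold change -0.22 ± 0.069, adjusted p = 0.15). SEMA3E, a secreted semaphorin, had 32.6, 26.0 and 36.3 CPM in VPA libraries against 30.4, 41.0 and 42.8 CPM in controls. Control 401 fell among the VPA libraries (log2 fold change -0.28 ± 0.14, adjusted p = 0.38). SYT6, a synaptotagmin gene, had 17.5, 16.9 and 23.0 CPM in VPA libraries against 23.1, 20.3 and 21.7 CPM in controls, where VPA 393 lay within the control range (log2 fold change -0.19 ± 0.12, adjusted p = 0.47).

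FOXP2, a forkhead factor, had 8.73, 6.63 and 9.62 CPM in VPA libraries against 8.78, 8.24 and 10.4 CPM in controls (log2 fold change -0.14 ± 0.16, adjusted p = 0.72). TLE4, a Groucho corepressor, had 58.4, 57.5 and 67.9 CPM in VPA libraries against 58.9, 57.3 and 65.1 CPM in controls (log2 fold change 0.0075 ± 0.080, adjusted p = 0.97). The groups of both genes overlapped, with VPA 392 lowest for FOXP2 and VPA 393 highest for TLE4. NTNG2, which encodes the membrane-anchored netrin-G2, had a positive log2 fold change, with 41.9, 41.5 and 37.3 CPM in VPA libraries against 34.4, 33.3 and 24.3 CPM in controls. All VPA libraries exceeded all controls, and control 408 was the lowest (log2 fold change 0.38 ± 0.12, adjusted p = 0.17).

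The remaining deep-layer members differed from each other. NXPH4, a neurexophilin gene of layer 6b, had 17.3, 14.1 and 16.8 CPM in VPA libraries against 23.0, 17.1 and 23.4 CPM in controls. Control 402 lay between VPA 393 and VPA 391, while the other controls were higher (log2 fold change -0.41 ± 0.13, adjusted p = 0.17). NR4A2, an orphan nuclear receptor gene that also responds to activity, had 54.9, 44.8 and 46.0 CPM in VPA libraries against 52.1, 45.1 and 45.5 CPM in controls (log2 fold change 0.02 ± 0.096, adjusted p = 0.95). THEMIS, a gene of T cell development that marks a set of deep cortical neurons, had 0.837, 1.47 and 1.67 CPM in VPA libraries against 1.5, 2.37 and 2.33 CPM in controls. At such low counts the error was large (log2 fold change -0.65 ± 0.34, adjusted p = 0.38). TSHZ2, a zinc finger gene, had 3.09 ± 0.448 CPM in VPA and 3.09 ± 0.974 CPM in controls.

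Control 401 was the control nearest to the VPA libraries in several members, named here after their values were seen. It was the highest control for PCP4, BCL11B and SLC17A6, and the lowest for FEZF2, SEMA3E and THEMIS. In other members it was the control farthest from the VPA mean. Among these were NEUROD6, NEUROD2, TBR1 and SYT6, where control 401 was the highest control and the log2 fold change was negative. In the same library the 10 oligodendrocyte markers summed to 17414 CPM, within the VPA range and above the 12943 and 14558 CPM of control 402 and control 408. Without control 401, the log2 fold change was 0.52 for PCP4, 0.82 for SLC17A6 and -0.35 for FEZF2 in edgeR, where none was called. Without control 408, it was 0.28 for PCP4, 0.24 for SLC17A6 and -0.18 for FEZF2. DESeq2 without control 401 called 5 members, SLC17A6, NTNG2 and PCP4 as higher and MEF2C and NPTX1 as lower in VPA. How many of all genes DESeq2 called in that fit was not counted, so these 5 have no background share. In edgeR the calls over all genes were 66 without control 401 and 52 with all libraries. The part of oligodendrocyte RNA in the values of these members was not tested.

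Upper and deep layers were set side by side as the mean log2(CPM + 0.5) of the upper-layer members minus that of the deep-layer members in the same library. The difference was 1.60, 1.71 and 1.66 in VPA libraries against 1.55, 1.63 and 1.47 in controls. VPA averaged 1.66 ± 0.0528 and controls 1.55 ± 0.0815 (SD, n = 3 each), a gap of 0.11, with control 402 above VPA 391. As the members were chosen with results known, no p is given for this score. The gap was 0.07 without RGS8 and WFS1. VPA 392 was the lowest library for 7 of the 14 deep-layer members, where it was the lowest for 17.7% of all genes tested.

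**Figure D5:**
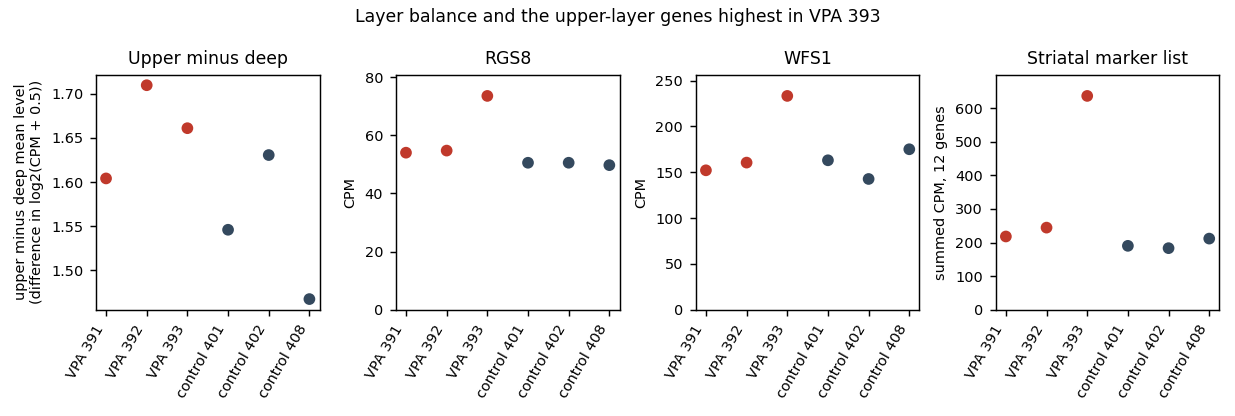
From left, the upper minus deep mean level (log2 scale, axis not from 0), RGS8 and WFS1 in CPM, and the summed CPM of 12 striatal markers, with 1 point per library, VPA left and control right. The upper minus deep values overlap between groups, while RGS8, WFS1 and the striatal sum are highest in VPA 393.

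Other genes of the same neurons were read from 3 further lists. Of 14 tested pan-glutamatergic genes outside the members 13 had a negative log2 fold change (median -0.16), and 1 was called, lower. This was SV2B, a synaptic vesicle protein gene, with 690.2, 633 and 725 CPM in VPA libraries against 822, 862 and 901 CPM in controls (log2 fold change -0.35 ± 0.060, adjusted p = 0.047). SV2B was not called in 8 of 18 alternatives. Among these were the fits without VPA 391, VPA 392, VPA 393, control 402 or control 408 (log2 fold changes from -0.39 to -0.30). Of 16 upper-layer genes outside the members 8 were negative (median -0.04) and none was called in edgeR. The lowest p there belonged to ENC1, which encodes an actin-binding protein, with 2303, 2324 and 2326 CPM in VPA libraries against 2665, 2763 and 2939 CPM in controls (log2 fold change -0.28 ± 0.052, adjusted p = 0.054 in edgeR and 2.86e-05 in DESeq2). LAMP5, a membrane protein gene of upper-layer neurons and of a set of interneurons, had 189, 199 and 199 CPM in VPA libraries against 259, 226 and 229.8 CPM in controls (log2 fold change -0.30 ± 0.056, adjusted p = 0.056 in edgeR and 0.00069 in DESeq2). ENC1 and LAMP5 were lower in every VPA library than in any control, and passed in 6 and 4 of 18 alternatives.

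Of 23 deep-layer genes outside the members 13 were negative (median -0.01), and none was called in edgeR. NFIA, a nuclear factor of deep-layer neurons and of glia, had 37.8, 38.3 and 41.1 CPM in VPA libraries against 31.1, 31.4 and 29.6 CPM in controls (log2 fold change 0.34 ± 0.072, adjusted p = 0.067 in edgeR and 0.030 in DESeq2). OPRK1, the kappa opioid receptor gene, had 17.3, 19.2 and 19.3 CPM in VPA libraries against 16, 11 and 13.5 CPM in controls (log2 fold change 0.45 ± 0.13, adjusted p = 0.13). Both were higher in every VPA library than in any control, and NFIA passed in 2 of 18 alternatives, OPRK1 in 0.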

How the data were processed

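Libraries of TRIzol-extracted total RNA were prepared with a VAHTS Universal V6 kit, per the labels' protocols. The sources used here name no strandedness, aligner, counter, build or annotation, so reads shared by paralogs, overlapping or antisense genes cannot be separated. The authors deposited raw counts and FPKM per gene, per the file headers and names. All 97071 nonzero FPKM values equalled count over file total and a fixed whole-number length (relative tolerance 0.001), so both units hold 1 measurement. Of 17201 names, 24 had turned into dates and were kept in library sizes; all 36 members matched RefSeq symbols of Sscrofa11.1. No 2 libraries agreed within sampling noise (chi-square per degree of freedom 5.91 to 13.2 over 15 pairs).

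CPM used file totals and is given per library or as mean ± SD. The test was edgeR 4.0.16 (R 4.3.3): filterByExpr, TMM, glmQLFit and glmQLFTest over 14373 genes, no covariate, 4 residual degrees of freedom, Benjamini-Hochberg threshold 0.05, and standard errors from the F statistic. Its functions were tested on simulated counts, with a pass mark set only for changes larger than that of any tested member. The labels name separate animals, and p-values measure the spread between them.

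Members, classes and gene lists were chosen with earlier results of these data known. All members are named; of the 3 further lists, called genes or the 2 with the lowest p. LINC00507, CCN2, S100B and TUBB3 were not matched and are not analysed here. Alternatives were RLE, upper quartile or no scaling, other filters, DESeq2 1.42.0, limma 3.58.1 (voom, or trend on log2(FPKM + 1) or log2(FPKM + 0.1) at a mean of at least 0.5 FPKM), robust dispersion, EIF1AY presence (at least 10 reads) as covariate, a threshold of 0.1, TBR1 as deep-layer, and each library left out. DESeq2 with each library left out, the upper minus deep alternatives and those of the further lists were added after seeing the data.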

Additional observations from a re-analysis of the deposited data

How the results depend on the processing

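The count of called genes, 52 with the settings of the report, was 141 with no filter, 444 in DESeq2, 30 in limma-voom, 2 and 2 in limma on log2(FPKM + 1) and log2(FPKM + 0.1), 1 in limma on FPKM with no filter, 168 with robust dispersion, 344 at a threshold of 0.1, and 0 to 66 with 1 library left out. The count of called members was 0 with any 1 library left out in edgeR, 1 with no filter, with robust dispersion and at a threshold of 0.1 (NEUROD6 each time), 3 in DESeq2, and 0 to 5 in DESeq2 with 1 library left out (2 without VPA 391, 3 without VPA 393, 5 without control 401, 1 without control 402). For DESeq2 with 1 library left out the share of all genes called was not counted. The pan-glutamatergic median ran from -0.19 to -0.11 with 1 library left out, the upper-layer median from -0.02 to 0.05 and the deep-layer median from -0.17 to -0.026. The deep-layer median was 0.010 and 0.018 in limma on log2(FPKM + 1) and log2(FPKM + 0.1), with 13 of the 14 members left by its filter. The gap in upper minus deep level stayed positive (0.06 to 0.15).

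Signs turned in 8 members and in no other tested member under the alternatives run. RORB was at -0.00094 with RLE, -0.0038 with no filter, -0.0015 in DESeq2, -0.00027 in limma-voom and -0.0025 with EIF1AY as covariate, and SERPINE2 at -0.0013 with RLE, -0.0039 with no filter and -0.0019 in DESeq2. TSHZ2 was at 0.00021 with library size only, 0.016 in limma-voom, 0.010 in limma on log2(FPKM + 1), with and without its filter, and 0.031 with log2(FPKM + 0.1). With 1 library left out the ranges were -0.046 to 0.081 for RORB, -0.068 to 0.014 for NECTIN3, -0.043 to 0.27 for WFS1, -0.038 to 0.057 for SERPINE2, -0.25 to 0.039 for PDGFD, -0.067 to 0.066 for TLE4, -0.17 to 0.28 for TSHZ2 and -0.091 to 0.079 for NR4A2. The cause was not tested. No paired analysis was possible because the animal numbers are not shared between groups. Depth limited TESPA1 (1 to 8 reads per library) and THEMIS (14 to 41).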

Other observations

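EIF1AY, a Y-linked gene, had 26.7 to 30.5 CPM in 4 libraries and 0 and 0.111 CPM in VPA 392 and control 401, so 1 library of each group lacked it. With its presence as a covariate 11 members were lower and 6 higher at an unadjusted p under 0.05, beside 2356 of all 14373 genes tested, and no member was called.

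Spread within groups differed widely between members. The pooled within-group coefficient of variation was 2.90% for SLC17A7, 3.57% for CUX1, 3.58% for NEUROD6 and 3.90% for CUX2, against 32.1% for SLC17A6 and 23.3% for BCL11B. TESPA1, THEMIS and TSHZ2, the members with the fewest reads, had 45.1%, 27.3% and 24.5%. SLC17A6 had 226 to 546 reads per library, more than NEUROD1 with 66 to 84 reads and a coefficient of 5.57%.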
